A study of Mus musculus with 6 samples.

Results

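Collagens and the proteins that assemble with them form the interstitial matrix and the basement membranes of a tissue, and 46 genes of this matrix were followed in cerebella that lack L1cam and in those of wild type siblings. The genes were those whose probe sets carry a single gene symbol in the array annotation, where that symbol names a collagen chain or is one of 16 listed symbols: Serpinh1, Sparc, Dcn, Lum, Bgn, Fmod, Ogn, Fbn1, Fbln1, Fn1, Nid1, Lox, Mgp, Vcan, Ncan and Tnc. This took in 68 probe sets for 31 collagen genes and 15 of the 16 listed genes, out of 8251 genes on the array with such a probe set. Fbn1 had no probe set of this kind and is not analysed here. The L1cam knockout mice were labelled as males (-/Y) and the wild type mice were their siblings, with no sex given for them. Both groups were of the strain 129S2/SvPasCrlf at postnatal day 11, with 3 mice per genotype, 1 cerebellum per array. Which part of the gene is altered is not given in the sources used here. The comparison asks whether the transcripts of the matrix differ in the cerebellum without L1cam, a cell adhesion molecule of growing axons.

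Collagen chains wind into triple helices in the endoplasmic reticulum, are secreted, and are then trimmed and crosslinked into fibrils or sheets outside the cell. In the brain, fibrillar collagens with decorin and lumican belong mainly to the meninges and the walls of larger vessels, and type IV collagen with nidogen forms the basement membrane around vessels and beneath the pial surface. The space between neurons and glia is instead filled by hyaluronan with lecticans and tenascins, many of them made by astrocytes, Bergmann glia and precursors of oligodendrocytes.

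Values are RMA log2 values, so a difference of 1 is a 2-fold change in signal, and a level cannot be set against that of another probe set. Across the 12422 probe sets tested, array medians ran from 8.87 to 8.94. L1cam itself read 8.25, 8.01 and 7.91 in the knockouts, against 8.79, 8.48 and 8.73 in wild type. Its difference was -0.60 (SE 0.10), with a limma adjusted p of 0.841 and a 2-sided exact permutation p of 0.1, the smallest that 3 arrays against 3 can give. Knockout 1 stood apart from the other arrays. The difference between its 3' and 5' Gapdh control probe sets was 0.67, against 0.04 and 0.13 in the other knockouts and -0.05 to 0.12 in wild type. The Y-linked gene Eif2s3y had a value of 7.11 there, while the other knockouts read 8.72 or more and wild type 8.59 to 8.84. Uty, also Y-linked, was at 6.67 in knockout 1, against 7.32 and 7.37 in the other knockouts and 7.38 to 7.45 in wild type. Both values go against the male label of knockout 1, and the cause was not tested. Some differences shrink by more than 1.5 times without this array. They are given without it too only for matrix genes with every array value printed, at the probe set with the highest mean. Differences of other genes and probe sets are given with all arrays, and some of these rest largely on knockout 1. Markers of cerebellar neurons were present throughout: Zic1, a granule cell gene, read 13.97 to 14.08 in the knockouts and 13.99 to 14.06 in wild type, and the 9 markers measured of 10 had a mean level of 12.77 to 12.92 in the knockouts and 12.74 to 12.98 in wild type. Of these 9, 2 had a higher and 7 a lower mean in the knockouts (median difference -0.043), none past the threshold used below.

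No matrix gene differed between the genotypes past a Benjamini-Hochberg adjusted p of 0.05 in limma, and the adjusted p-values of the 68 probe sets ran from 0.885 to 0.998. Over the whole array the percentage called was 0. By sign alone, 24 of the 46 genes had a higher mean in the knockouts and 22 a lower one, where each gene is represented by its brightest probe set. That is 52.2% higher, against 38.3% of all 8251 genes. The split was 29 higher and 17 lower after quantile normalization and also after median centring. The median difference over all genes rose too, from -0.022 as deposited to -0.006 and 0.010 in these settings. The signs of the smallest differences thus depend on scaling. Differences ran from -0.13 for Vcan to 0.25 for Sparc. Their median was 0.004, against -0.022 over all genes. At an unadjusted limma p under 0.05 stood 1 gene of the 46, or 2.17%, against 5.22% of all genes, and 3 of the 68 probe sets, or 4.41%, against 5.08% of all probe sets.

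The 95% intervals give the precision of these differences. That of a matrix gene reached 0.157 to either side at the median, the same as for all genes. It lay inside a 1.5-fold change in either direction for all 46 genes and inside a 1.2-fold change for 30 of them. The outermost bounds were 1.36-fold higher, for Sparc, and 1.32-fold lower, for Col2a1. The spread between mice of 1 genotype was also that of the array as a whole, with a median within-genotype SD of 0.0854 for the matrix genes and 0.0851 for all genes. Col2a1 and Col19a1 varied most among mice, each with an SD of 0.21, and Col9a1 least, with an SD of 0.045.

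**Figure D1:**
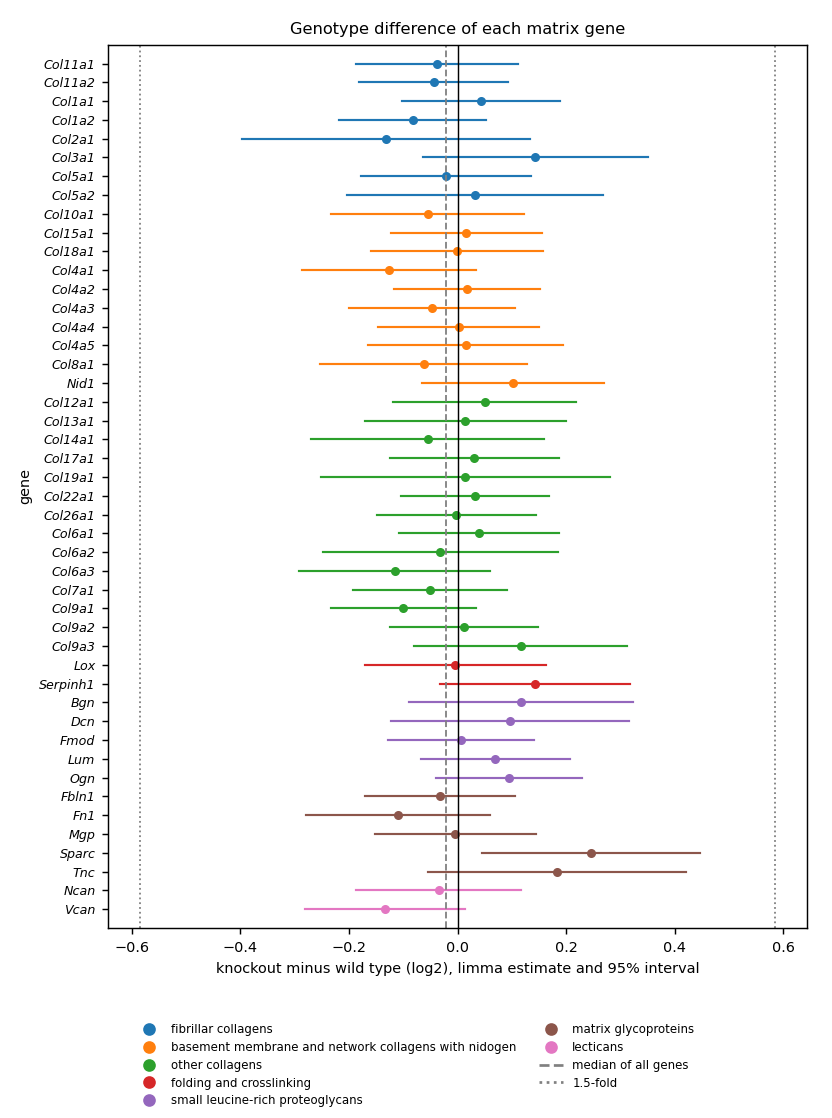
Knockout minus wild type difference of each of the 46 matrix genes on the log2 scale (x axis), 1 gene per row, coloured by role. Points are limma estimates from 3 knockout and 3 wild type arrays, bars 95% intervals, the dashed line is the median of all genes (-0.022) and dotted lines mark 1.5-fold. Every interval lies between the dotted lines, and that of Sparc is the one that does not cross 0.

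The fibrillar collagens, the rope-like chains of tendon, skin, cartilage and meninges, were split in sign. Knockout means were higher for 3 and lower for 5 of these 8 genes, none passed, and their median difference was -0.030 (-0.060 without knockout 1 and 0.006 without knockout 3). Col1a1 and Col1a2 encode the chains of type I collagen, the main fibrillar collagen of the meninges. Col1a1 read 11.25, 11.31 and 11.31 in the knockouts, against 11.31, 11.28 and 11.15 in wild type. The groups overlapped, and the difference of 0.04 (SE 0.07, 95% interval -0.10 to 0.19) had a limma adjusted p of 0.949. A second Col1a1 probe set differed by -0.05. Col1a2 read 11.24, 11.23 and 11.12 in the knockouts, against 11.29, 11.26 and 11.30 in wild type. Every knockout array was below every wild type array there. The difference was -0.08 (SE 0.06, limma adjusted p = 0.932), and -0.05 without knockout 3. The second Col1a2 probe set differed by 0.02 with overlapping groups. The name suffix of the first was taken to leave it open to cross-hybridization. The annotated start region of Col1a2 is shown because CCAAT and GGGCGG boxes are well-known elements of type I collagen promoters. It is the RefSeq window from 250 bases before to 50 after the annotated start (GRCm38.p6, chr6:4505368-4505667, plus strand), with both motifs in capitals on either strand:

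Col1a2: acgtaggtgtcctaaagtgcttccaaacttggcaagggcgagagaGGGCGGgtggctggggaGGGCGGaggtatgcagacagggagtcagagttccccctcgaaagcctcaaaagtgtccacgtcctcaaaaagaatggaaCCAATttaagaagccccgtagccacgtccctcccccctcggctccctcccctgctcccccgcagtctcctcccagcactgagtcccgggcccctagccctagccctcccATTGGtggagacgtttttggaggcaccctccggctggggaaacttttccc

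The window held 2 matches to CCAAT (or ATTGG) and 2 to GGGCGG (or CCGCCC), none overlapping another. Among all 32851 promoter windows of the RefSeq table, 37.4% held CCAAT on either strand and 35.7% held GGGCGG. A window was given for 32 of the 46 genes, and of their 37 windows 12 held CCAAT (32.4%) and 21 held GGGCGG (56.8%). Such matches describe letters and not binding sites. The median GC content was 58.7% for the windows of matrix genes, against 52.7% for all windows.

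Col3a1, the chain of type III collagen that is found with type I in vessel walls and loose connective tissue, was the fibrillar gene with the highest difference. Its summary probe set read 9.83, 9.50 and 9.67 in the knockouts, against 9.53, 9.65 and 9.40 in wild type. Knockout 1 was the highest array and wild type 3 the lowest, and the groups overlapped. The difference was 0.14 (SE 0.09, 95% interval -0.06 to 0.35, limma adjusted p = 0.927), and 0.06 without knockout 1. Both other Col3a1 probe sets also had a higher knockout mean, by 0.17 and by 0.21. The probe set at 0.17 is dim, at percentile 8.91 of mean signal. Knockout 1 read 6.71 there, against 6.44 and 6.31 in the other knockouts and 6.24 to 6.38 in wild type. The probe set at 0.21 read 7.67, 7.46 and 7.52 in the knockouts, against 7.50, 7.29 and 7.22 in wild type, with an unadjusted limma p of 0.033 and a limma adjusted p of 0.922. The name suffix of the probe set at 0.21 was taken to leave it open to cross-hybridization. Probe sets of 1 gene are meant to measure the same RNA and do not count as separate evidence. The start region of Col3a1 is shown for contrast with Col1a2, with its single match to TATAAA in capitals (GRCm38.p6, chr1:45311288-45311587, plus strand):

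Col3a1: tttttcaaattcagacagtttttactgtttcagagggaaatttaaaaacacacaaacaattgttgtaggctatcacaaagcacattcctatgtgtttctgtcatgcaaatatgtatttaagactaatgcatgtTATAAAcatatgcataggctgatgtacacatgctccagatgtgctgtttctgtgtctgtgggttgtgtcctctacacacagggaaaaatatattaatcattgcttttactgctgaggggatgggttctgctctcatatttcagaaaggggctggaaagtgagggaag

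It contained no CCAAT or GGGCGG in these 300 bases, and its GC content was 37.7%, against 61.0% for the Col1a2 window. TATAAA, or its reverse complement TTTATA, stood in 13.6% of all windows and in 9 of the 37 windows of matrix genes (24.3%).

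Col2a1 and Col11a2 are chains of cartilage fibrils. Col2a1 read 8.44, 8.80 and 8.26 in the knockouts, against 8.74, 8.53 and 8.62 in wild type. The knockout arrays spanned the whole wild type range, and the difference of -0.13 (SE 0.12, limma adjusted p = 0.932) lay between -0.28 without knockout 2 and -0.01 without knockout 3. Col5a1 and Col5a2, which regulate fibril diameter, differed by -0.02 and 0.03, and Col11a1 and Col11a2 by -0.04 each. Col5a2 read 8.12 in knockout 1, against 7.85 and 7.70 in the other knockouts and 7.71 to 7.95 in wild type.

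**Figure D2:**
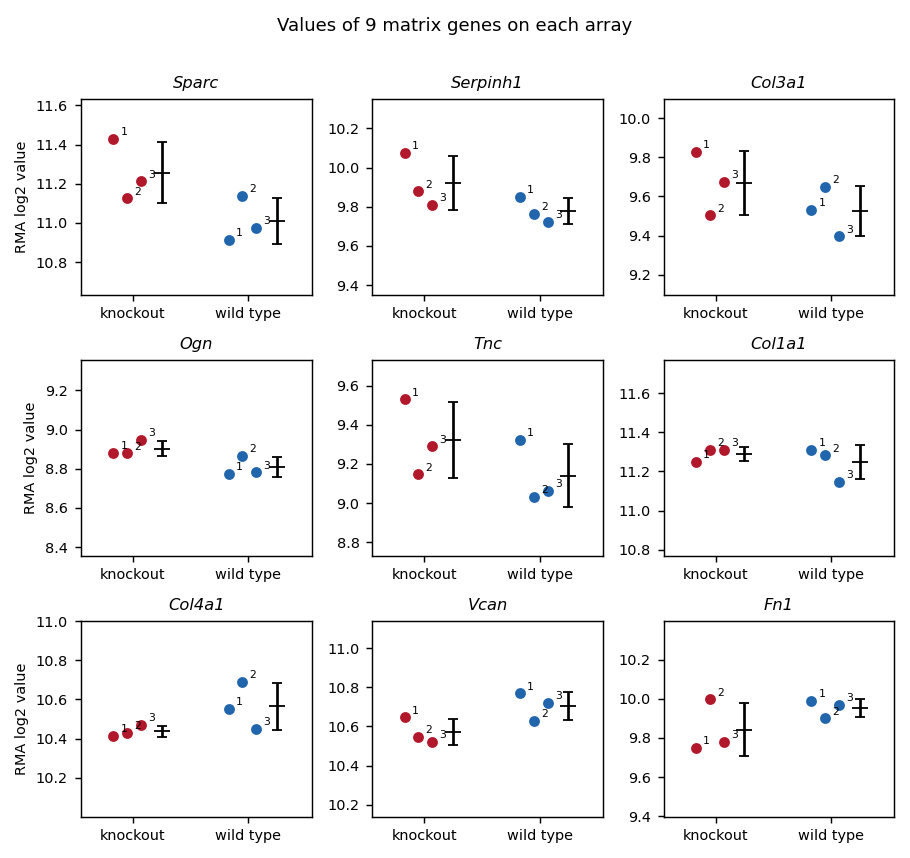
RMA log2 values of 9 matrix genes on the 3 knockout and 3 wild type arrays (points, with the replicate number), with the mean and SD of each genotype (black). Each panel spans 1 log2 unit. The genotypes are fully apart for Ogn only, and knockout 1 is the highest array for Sparc, Serpinh1, Col3a1 and Tnc.

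Basement membrane and network-forming collagens, with the linker nidogen, showed 5 higher and 5 lower means among 10 genes, none past the threshold, and a median difference of 0.000. Col4a1 and Col4a2 encode the chains of the common type IV collagen trimer of vessel basement membranes. They stand head to head on mouse chromosome 8, so that their start regions overlap. Col4a1 read 10.41, 10.43 and 10.47 in the knockouts, against 10.55, 10.69 and 10.45 in wild type. The 3 knockout values lay close together, within the span from 10.41 to 10.47, and the groups overlapped only through wild type 3. The difference was -0.13 (SE 0.07, 95% interval -0.29 to 0.03, limma adjusted p = 0.927), and -0.06 without wild type 2. Col4a2 read 10.51, 10.56 and 10.45 in the knockouts, against 10.53, 10.47 and 10.47 in wild type, and differed by 0.02 (95% interval -0.12 to 0.15). Whether the pair differ from each other in their response was not tested. The start windows of the pair are shown with the 78 bases they share in capitals (GRCm38.p6, Col4a1 at chr8:11312777-11313076, minus strand, and Col4a2 at chr8:11312555-11312854, plus strand):

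Col4a1: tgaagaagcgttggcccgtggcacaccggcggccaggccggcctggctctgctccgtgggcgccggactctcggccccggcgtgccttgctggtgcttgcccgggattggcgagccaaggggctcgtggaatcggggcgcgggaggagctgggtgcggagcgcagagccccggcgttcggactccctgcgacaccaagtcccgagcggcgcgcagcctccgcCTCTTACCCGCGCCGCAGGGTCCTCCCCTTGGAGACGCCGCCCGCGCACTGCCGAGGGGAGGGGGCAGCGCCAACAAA

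Col4a2: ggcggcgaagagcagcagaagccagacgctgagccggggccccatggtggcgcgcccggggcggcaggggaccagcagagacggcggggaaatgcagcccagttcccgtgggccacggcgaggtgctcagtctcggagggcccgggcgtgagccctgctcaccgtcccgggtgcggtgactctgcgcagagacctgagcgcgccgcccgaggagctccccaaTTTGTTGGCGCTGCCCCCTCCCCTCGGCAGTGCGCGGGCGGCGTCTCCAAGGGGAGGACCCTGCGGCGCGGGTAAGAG

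The shared stretch runs from base 11312777 to base 11312854, and in one window it is the reverse complement of the other. Both windows are rich in G and C, at 73.7% for Col4a2 and slightly more for Col4a1, against a median of 52.7% over all windows. Each held 1 match to CCAAT on either strand, and GGGCGG was matched 1 time in the Col4a1 window and 3 times in that of Col4a2. The Col4a1 match and 1 of the 3 in Col4a2 are the same bases, within the shared stretch. Neither held TATAAA.

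The minor type IV chains, which belong to kidney, lung and ear basement membranes, differed little. Col4a3 differed by -0.05, Col4a4 by 0.00 and Col4a5 by 0.01. Nid1, nidogen, which links laminin and type IV collagen networks, read 6.638, 6.504 and 6.527 in the knockouts, against 6.574, 6.336 and 6.453 in wild type, with overlapping groups. Its difference was 0.10 (SE 0.07, limma adjusted p = 0.932) on a dim probe set, at percentile 10.2 of mean signal. It was 0.06 without knockout 1 and 0.04 without wild type 2. Col18a1, the vessel and epithelial collagen that releases endostatin, had 5 probe sets, 2 with a higher and 3 with a lower knockout mean, from -0.12 to 0.05, and its brightest differed by -0.00 (95% interval -0.16 to 0.16). Col15a1 differed by 0.02, Col8a1 by -0.06 and Col10a1 by -0.06.

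The remaining collagens, which coat fibrils, form beaded filaments or span membranes, comprised 14 genes. Of these 8 had a higher and 6 a lower mean, none passed, and the median difference was 0.013. Col9a1 encodes a chain of type IX collagen, which sits on the surface of cartilage fibrils. It read 10.44, 10.53 and 10.41 in the knockouts, against 10.54, 10.58 and 10.57 in wild type. Every knockout array was below every wild type array, knockout 2 only narrowly, and the difference was -0.10 (SE 0.06, limma adjusted p = 0.927). The groups overlapped for both partner chains. Col9a2 differed by 0.01, and Col9a3 read 10.63, 10.36 and 10.36 in the knockouts, against 10.46, 10.28 and 10.27 in wild type. The Col9a3 difference of 0.12 (SE 0.09, limma adjusted p = 0.932) was 0.03 without knockout 1, and its second, dim probe set differed by -0.05. Type VI collagen, the beaded filament around many cells, differed by 0.04 for Col6a1, by -0.03 for Col6a2 and by -0.12 for Col6a3. Col6a3 read 9.40, 9.51 and 9.31 in the knockouts, against 9.64, 9.41 and 9.52 in wild type, with overlapping groups and a limma adjusted p of 0.927, and its difference was -0.06 without wild type 1. Col7a1, of anchoring fibrils, read 9.84, 9.90 and 9.75 in the knockouts, against 9.92, 9.84 and 9.88 in wild type, a difference of -0.05 (limma adjusted p = 0.941) that was -0.01 without knockout 3. The other genes of this group differed by -0.06 for Col14a1, -0.00 for Col26a1, 0.01 for each of Col13a1 and Col19a1, 0.03 for each of Col17a1 and Col22a1 and 0.05 for Col12a1.

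Serpinh1, also called Hsp47, is the chaperone that binds folded procollagen in the endoplasmic reticulum. It read 10.08, 9.88 and 9.81 in the knockouts, against 9.85, 9.76 and 9.72 in wild type. Knockout 1 was clearly the highest array, and knockout 3 lay below wild type 1. The difference was 0.14 (SE 0.08, 95% interval -0.03 to 0.32, limma adjusted p = 0.924), and 0.06 without knockout 1. Lox, the enzyme that starts collagen crosslinks, differed by -0.00 at one probe set and by -0.03 at the other, both dim.

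The small leucine-rich proteoglycans bind collagen fibrils and set their spacing, and decorin and lumican are classical fibroblast products. All 5 measured had a higher mean in the knockouts, none past the threshold, with a median difference of 0.10. The same 5 signs were found after quantile normalization, median centring and cyclic loess, but 4 of 5 signs without knockout 2, without knockout 3, without wild type 3, with array weights, and when all probe sets of a gene were averaged. The median difference was 0.06 without knockout 1 and 0.05 without wild type 3. Ogn, osteoglycin or mimecan, read 8.88, 8.88 and 8.95 in the knockouts, against 8.78, 8.87 and 8.78 in wild type. All 3 knockout arrays lay above all wild type arrays, by only 0.01 between knockout 2 and wild type 2. The difference was 0.10 (SE 0.06, limma adjusted p = 0.927). Its second probe set read 6.68, 6.80 and 6.87 in the knockouts, against 6.48, 6.59 and 6.48 in wild type. There too the groups did not overlap, and the difference of 0.26 (SE 0.07, 95% interval 0.11 to 0.42) had the smallest unadjusted p of the 68 probe sets, 0.003, with a limma adjusted p of 0.885. This probe set is dim, at percentile 12.04 of mean signal. Bgn, biglycan, read 10.91, 10.84 and 10.66 in the knockouts, against 10.86, 10.64 and 10.56 in wild type, a difference of 0.12 (SE 0.09, limma adjusted p = 0.932) with overlapping groups, and 0.06 without knockout 1 or 0.05 without wild type 3. Its second probe set differed by 0.02. The order of the arrays within Dcn was different, with 10.22, 10.07 and 10.42 in the knockouts, against 10.03, 10.30 and 10.10 in wild type. Lum ran from 8.50 to 8.61 in the knockouts and from 8.46 to 8.54 in wild type, and Fmod from 8.93 to 9.04 in the knockouts and from 8.95 to 9.02 in wild type.

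Among the matrix glycoproteins, Sparc had the largest difference of the 46 genes. Sparc, or osteonectin, is a collagen-binding protein of Bergmann glia, other astrocytes, endothelium and fibroblasts. It read 11.43, 11.13 and 11.21 in the knockouts, against 10.91, 11.14 and 10.98 in wild type. Knockout 1 was the highest array and wild type 1 the lowest, and knockout 2 lay just below wild type 2. The difference was 0.25 (SE 0.09, 95% interval 0.05 to 0.45), or 1.19-fold higher, with an unadjusted p of 0.021 and a limma adjusted p of 0.922. Without knockout 1 it was 0.16. Tnc, tenascin C, a glial and growth-zone protein that modulates adhesion and neurite growth, read 9.53, 9.15 and 9.29 in the knockouts, against 9.32, 9.03 and 9.06 in wild type. Its difference of 0.18 (SE 0.11, 95% interval -0.05 to 0.42, limma adjusted p = 0.927) was 0.08 without knockout 1, and its second probe set differed by 0.09. That second probe set read 7.65 in knockout 1, against 7.30 and 7.47 in the other knockouts and 7.33 to 7.47 in wild type. Fn1, fibronectin, which vessels and meninges deposit and integrins bind, read 9.749, 9.998 and 9.781 in the knockouts, against 9.989, 9.900 and 9.970 in wild type. Knockouts 1 and 3 were below all wild type arrays while knockout 2 was above them. The difference was -0.11 (SE 0.08, limma adjusted p = 0.927), and -0.06 without knockout 1. All 4 probe sets of Fbln1, fibulin 1 of basement membranes and elastic fibres, had a lower knockout mean, from -0.11 to -0.03. At 1 of them, which differed by -0.10, the groups did not overlap. Mgp, the inhibitor of calcification, differed by -0.00. The median of these 5 genes was -0.004 (3 with a lower and 2 with a higher mean), and 0.03 after each of quantile normalization, median centring and cyclic loess, where the split was 3 higher and 2 lower.

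Both lecticans, the hyaluronan-binding proteoglycans of brain matrix, had a lower mean in the knockouts. Vcan, versican, made by precursors of oligodendrocytes and by astrocytes, read 10.65, 10.55 and 10.52 in the knockouts, against 10.77, 10.63 and 10.72 in wild type. Knockout 1 lay above wild type 2, so the groups overlapped, and the difference was -0.13 (SE 0.07, 95% interval -0.28 to 0.01, limma adjusted p = 0.922). Ncan, neurocan, a ligand that is known to bind L1 family molecules, read 9.53, 9.62 and 9.51 in the knockouts, against 9.70, 9.54 and 9.53 in wild type. Its difference of -0.04 (SE 0.07, limma adjusted p = 0.965) was -0.02 without knockout 1 and 0.02 without wild type 1, and the second Ncan probe set differed by 0.01.

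**Figure D3:**
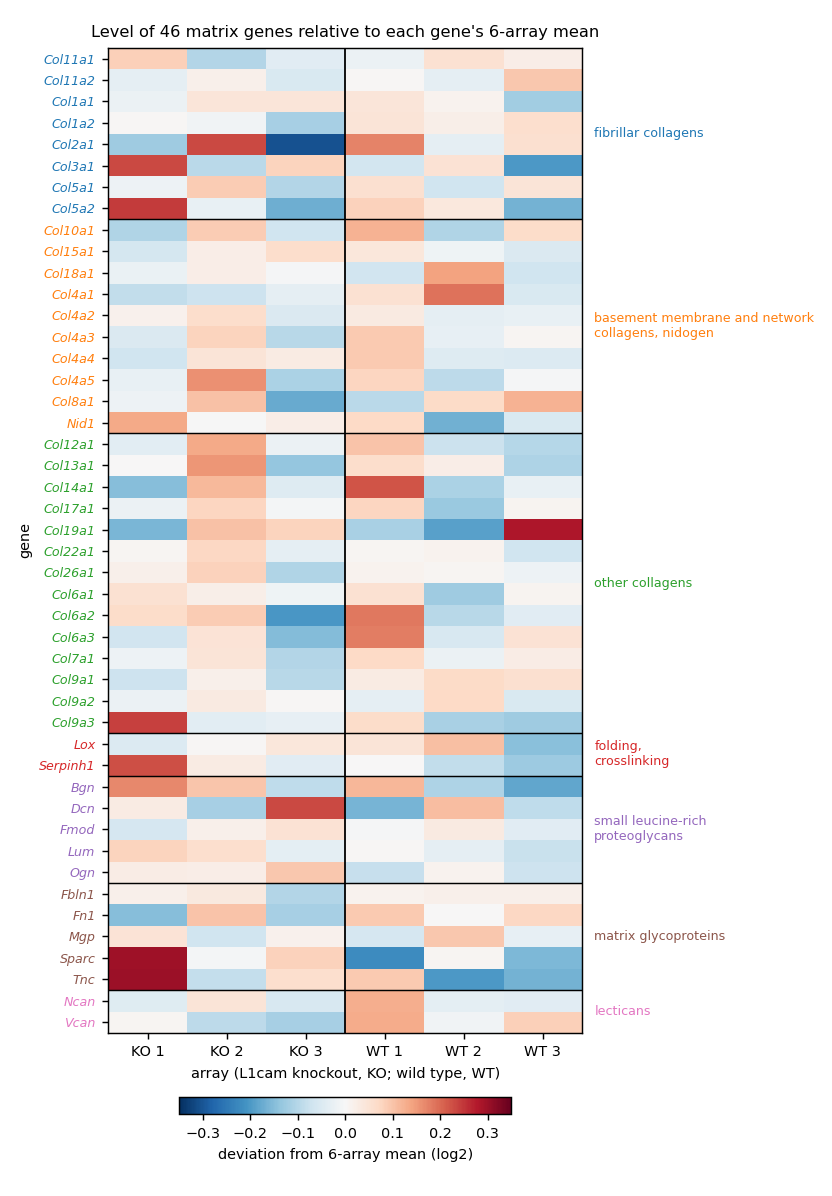
Deviation of each of the 46 genes from its own mean over 6 arrays (colour, log2), with knockout arrays left of the line and wild type arrays right of it, and genes in rows grouped by role. The genotypes are fully apart for Col1a2, Col9a1 and Ogn, and Sparc, Tnc, Col3a1, Serpinh1 and Col9a3 are highest in knockout 1.

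Across all members, groups did not overlap for 3 genes, Col1a2, Col9a1 and Ogn, or 6.52%, against 10.7% of all genes. By probe set it was 5 of 68, or 7.35%, against 10.4% of all probe sets, the others being the second set of Ogn and 1 of Fbln1. The variation that the genes did show ran between arrays. Knockout 3 was the lowest array for 18 of the 46 genes (39.1%), against 28.6% of all genes. Knockout 2 was the highest array for 11 of them (23.9%, against 16.6% of all genes) and knockout 1 for 10 (21.7%, against 16.1%). Wild type 1 was highest for 11 (23.9%), close to its share of 23.0% over all genes. The median deviation of the 46 genes from their 6-array means was -0.018, 0.039 and -0.040 in the knockouts, against 0.049, -0.017 and -0.039 in wild type. Over all genes the same deviation ran from -0.024 to 0.008 in the knockouts and from 0.003 to 0.021 in wild type.

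Where a gene had several probe sets, these often disagreed. Of the 16 genes with more than 1, the probe sets of 9 differed in sign and those of 7 did not. The 7 were Col3a1, Ogn, Tnc and Bgn, with every knockout mean higher, and Fbln1, Col5a1 and Lox, with every knockout mean lower.

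**Figure D4:**
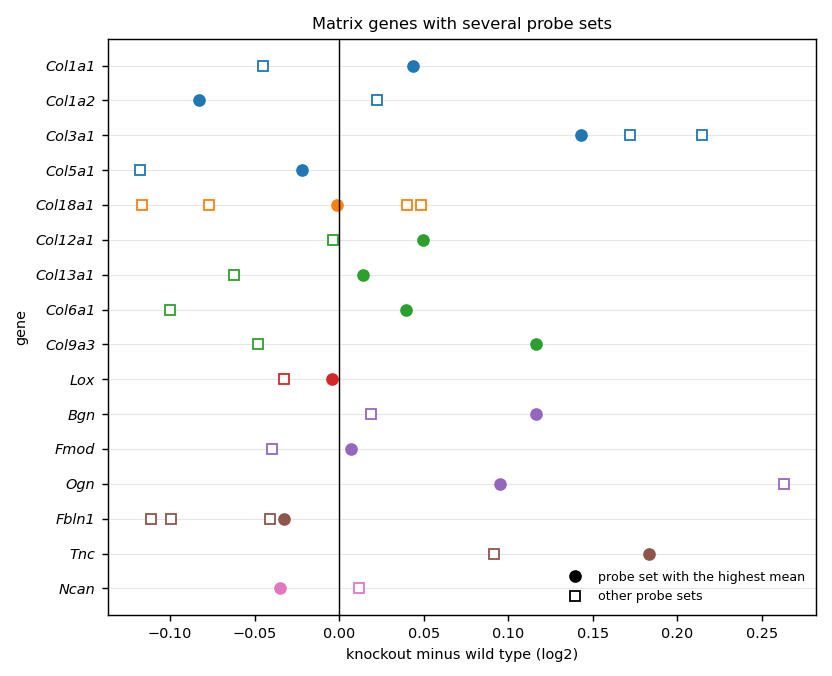
Knockout minus wild type difference (x axis, log2) at each probe set of the 16 matrix genes that have more than 1, coloured by role. Filled circles are the probe set with the highest mean, open squares the others. The probe sets of Col3a1, Bgn, Ogn and Tnc all lie right of 0, those of Fbln1, Col5a1 and Lox all left of it, and the rest straddle it.

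Genes that make, modify or remove this matrix did not pass either. Of 14 genes of collagen biosynthesis and processing, 5 had a higher and 9 a lower mean in the knockouts (median difference -0.021). P4ha2, a prolyl hydroxylase subunit, differed by -0.14, Colgalt1, a collagen galactosyltransferase, by 0.14 and Ppib, the cyclophilin that helps procollagen fold, by 0.12. Ppib read 11.64 in knockout 1, against 11.36 and 11.38 in the other knockouts and at most 11.39 in wild type. Of 22 proteases and inhibitors, 9 were higher and 13 lower (median -0.021), with the inhibitor Timp3 at 0.16, the protease Mmp7 at -0.10 and Reck, a membrane inhibitor, at -0.10. For Timp3 and Mmp7 the groups did not overlap. Of 24 genes of TGF-beta signalling and its targets, 13 were higher and 11 lower (median 0.004). Ccn2, a matricellular TGF-beta target, read 7.08, 6.95 and 7.02 in the knockouts, against 6.91, 6.64 and 6.81 in wild type. Every knockout array was above every wild type array, and its difference was 0.23 (SE 0.08, limma adjusted p = 0.922). Postn, periostin, which binds type I collagen, differed by 0.16, also without overlap, and Ski, a repressor of the pathway, by -0.25. Tgfbi, another TGF-beta target, lay the other way at -0.12, again without overlap. Of 15 other basement membrane genes, 6 were higher and 9 lower (median -0.041). The laminin chain Lamb1 differed by -0.25 and Lama5 by -0.10, both without overlap between the genotypes, and Lama2 by -0.10. Of 17 partners of brain matrix, 6 were higher and 11 lower (median -0.033), with Matn4 at -0.14, Acan, the aggrecan of perineuronal nets and cartilage, at -0.14 and Tnxb, tenascin X, at -0.10, the last without overlap. Groups without overlap numbered 1 of 14, 2 of 22, 3 of 24, 2 of 15 and 2 of 17 genes in the lists as ordered here, against 10.7% of all genes. The remaining cases were Crtap, at 0.07, and Bcan, at -0.03, and like Tgfbi they are named only for this. The limma adjusted p of every gene in these 5 lists was 0.922 or higher.

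Markers of the cells that make the matrix were set beside these values. In whole tissue, fewer cells of a type and less RNA per cell cannot be told apart. Of 16 genes of meninges and fibroblasts outside the 46, 9 had a higher and 7 a lower mean in the knockouts (median difference 0.014), and no group was free of overlap. Their mean level was 9.24, 9.14 and 9.17 in the knockouts, against 9.23, 9.17 and 9.11 in wild type. Knockout 1 was highest and wild type 3 lowest. The same arrays were highest and lowest for Col3a1, Serpinh1, Bgn and Lum. For other matrix genes they were not, among them Col1a1, Col1a2 and Dcn. Col1a1 was lower in knockout 1 (11.25) than in the other knockouts. Col1a2 was highest in wild type 3 (11.30) and Dcn in knockout 3 (10.42). Igf2, a growth factor of the meninges, read 13.50 to 13.57 in the knockouts and 13.43 to 13.51 in wild type. Of 13 genes of endothelium and mural cells 6 were higher and 7 lower, with a mean level of 8.94 to 9.01 in the knockouts and 8.95 to 9.01 in wild type. Among 10 astroglial genes, Bergmann glia included, 4 had a higher and 6 a lower mean in the knockouts. Their mean level was 11.61 to 11.75 in the knockouts and 11.57 to 11.76 in wild type. Aqp4, the water channel of astrocyte endfeet, read 10.68, 11.04 and 11.04 in the knockouts, against 11.16, 11.43 and 11.28 in wild type. Every knockout array was below every wild type array, and the difference of -0.37 (SE 0.11, limma adjusted p = 0.885) was larger in size than that of any matrix gene. Sparc and Tnc had the opposite sign to Aqp4, as did 4 of the 10 astroglial genes. Among these 4 were Gdf10 at 0.17, Fabp7 at 0.17 and Gfap at 0.15, each with overlapping groups. Gfap read 11.53 in knockout 1, against 11.03 and 11.11 in the other knockouts and 10.89 to 11.34 in wild type. The part of these cell types in the values of Col3a1, Serpinh1, Sparc and Tnc was not tested.

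A few markers of choroid plexus and muscle varied more between arrays than any matrix gene. So did the neuronal marker Gabra6 and the astroglial markers Aldoc and Gfap, with a within-genotype SD of 0.39, 0.32 and 0.25. Ttr, the transthyretin of choroid plexus, read 12.56, 12.43 and 10.20 in the knockouts, against 9.71, 12.55 and 12.13 in wild type, and Kl read 8.15, 8.26 and 7.53 in the knockouts, against 7.60, 8.14 and 8.26 in wild type. Knockout 3 and wild type 1 were low for both. Folr1 and Aqp1, the other choroid plexus markers measured, were also lowest in knockout 3, at 9.57 and 9.26. In wild type 1 they read 9.87 and 9.50, the highest of the wild type arrays. Acta1, a skeletal muscle actin, read at most 8.05 in the knockouts, against 9.11 in wild type 2 and 7.93 and 7.98 in the other wild type arrays. Among 6 cartilage and bone genes, 2 had a higher and 4 a lower mean, and the mean level was 7.21 to 7.35 in the knockouts and 7.28 to 7.35 in wild type. Of 5 blood genes 4 were higher and 1 lower, with a mean level of 11.30 to 11.43 in the knockouts and 11.13 to 11.28 in wild type. Their median difference was 0.19. At an unadjusted limma p under 0.05 stood 3 of the 5, against 5.22% of all genes. Groups did not overlap for 2 of the 5, against 10.7% of all genes. Hba-a1, a globin gene, was 1 of these, and its difference of 0.29 (SE 0.07, limma adjusted p = 0.841) was larger than that of any matrix gene. What part these tissues have in the matrix values was not tested.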

How the data were processed

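RNA from 6 cerebella was hybridized to Affymetrix Murine Genome U74Av2 arrays. The deposited values are log2 expression values that the authors made with RMA, per the submitters' processing notes. The sources used here give no version or settings of RMA. The table held 12488 probe sets, and 66 array controls were left out, leaving 12422. One gene symbol was given for 10833 of these, several for 396 and none for 1193. All 46 member symbols equal those of RefSeq GRCm38.p6.

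Genotype was tested on the deposited values with lmFit and eBayes of limma 3.58.1 in R 4.3.3, 2-sided, with Benjamini-Hochberg adjustment over all 12422 probe sets at 0.05. Gene summaries use the probe set with the highest mean over 6 arrays. The procedure was tested on simulated data. Arrays carry no read depth, so their number limits precision. Each array was treated as a separate animal, as the description names 3 knockouts and 3 siblings.

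Members and lists were chosen with earlier results of these data known. Differences are named for the 8 genes in each direction with the smallest unadjusted p, for genes whose groups do not overlap, and for Col1a1, Col1a2, Col3a1, Col4a1, Serpinh1, Sparc, Fn1, Ncan and Tnc. Those of other members are given to account for each of them. From each pathway list the 3 with the smallest unadjusted p are named. Zic1, Gabra6, Igf2, Aqp4, Gdf10, Fabp7, Gfap, Aldoc, Ttr, Kl, Folr1, Aqp1, Acta1, Hba-a1, Tgfbi, Crtap and Bcan were chosen from their lists after their values were seen.

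Same-numbered arrays were checked for pairing: the deviations from genotype means correlated at 0.16, -0.32 and 0.17, so the numbers were not taken to pair mice.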

Additional observations from a re-analysis of the deposited data

How the results depend on the processing

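Alternatives covered scaling (quantile, median centring or cyclic loess) and the removal of dim probe sets under the 40th percentile of mean signal. They also covered variance estimation with trend and robust options, weighted arrays, the replicate block, omission of each array and averaged probe sets. The last were a threshold of 0.1 and the removal of probe sets whose name suffix was taken to leave them open to cross-hybridization. These make 16 settings. No matrix gene passed in any of them, and the smallest limma adjusted p of a named gene was 0.424, with array weights. Knockout 1 was not weighted down there. Its weight was 1.57, against 0.61 and 0.83 in the other knockouts and 0.78 to 1.61 in wild type. With the replicate block the count was 0 over all probe sets too, the smallest adjusted p of a matrix gene was 0.875, and no call changed. Over all probe sets the count ran from 0 to 1 when arrays were left out, the 1 arising without knockout 3. The median difference of the 46 genes ran from -0.012 without wild type 3 to 0.036 after median centring. Of 268 alternative values of the 18 named genes, 264 kept their sign. When arrays were left out, Col1a1 ran from -0.0062 without wild type 3 to 0.0756 without wild type 1. It was -0.00083 with averaged probe sets, which differ in sign. Ncan ran from -0.0666 without knockout 2 to 0.0194 without wild type 1. Col1a2 was 0.0224 without probe sets open to cross-hybridization, which leaves only its other probe set. Matrix genes whose groups do not overlap numbered 5 after quantile normalization, against 3 as deposited. They numbered 5 to 10 when an array was left out, where fewer arrays need to be apart. The shares of all genes in these settings are not given here, so the counts cannot be set against the array as a whole. Of all probe sets at an unadjusted p under 0.05, 48.3% were higher in the knockouts, against 66.0% with quantile scaling, 79.1% with centred medians and 66.3% with cyclic loess. The filter on dim probe sets left 35 of the 46 genes, and 43 were left without probe sets open to cross-hybridization. Leaving out Col4a3bp was not run, since it is not among the genes measured.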
